A study of Rattus norvegicus with 8 samples.

Results

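Astrocyte genes, 10 of the 26405 genes in each table, were followed through RNA from microfluidic cultures of hippocampal neurons taken from rat embryos, in which axons grow apart from the cell bodies. They are the intermediate filament genes Gfap, Vim and Nes, the channel genes Aqp4 and Gja1, the transporter genes Slc1a2, Slc1a3 and Slc4a4, and Glul and S100b. The rule was the gene symbol in the tables, which found 8 of them. Slc1a2 has a blank symbol there and Nes stands under LOC100910255, so these 2 were found by their Entrez identifiers in RefSeq.

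Soluble oligomers of Abeta(1-42), the peptide that aggregates in Alzheimer disease, or a vehicle control were given for 24 h to the axonal compartment alone. The 4 groups of 2 samples are axons with Abeta, axons with control, soma and neurites with Abeta, and soma and neurites with control. No source used here says that the 2 samples of a group came from separate cultures. P-values therefore measure only how these samples spread, and that spread may be technical.

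The tables hold 1 comparison of the treatments for each compartment, without naming the treatment in the numerator. A gene is therefore placed on the positive side (deposited log2 fold change above 0) or the negative side, and neither side can be named as Abeta or control. Whole reads per library were worked back from the deposited means and are given as normalized counts (reads divided by the library's size factor). A library is named by its side and numbered, 1 being that with the larger size factor. The 4 axonal libraries held 231854 to 425420 recovered reads, and the somatic ones 262971 to 3656302, with a deep library 1 and a shallow library 2 on each side. These totals are not the whole depth, since genes with a mean above 1000, which hold 84.9% of the axonal and 77.3% of the somatic summed means, were worked back only where they are members. The 5473 genes read in axons and never in soma made up 2.80% and 1.25% of recovered axonal reads in the positive-side libraries, against 5.59% and 4.62% in the negative-side ones; the part of this difference in the results was not tested.

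Astrocytes take up the glutamate that synapses release, turn it into glutamine, and buffer water, potassium and bicarbonate around neurons. Gfap and Vim encode the intermediate filaments of their cytoskeleton, which grow denser when astrocytes react to injury, and Nes encodes nestin, the filament protein of neural progenitors that reactive astrocytes can make again. The channels, transporters and enzymes of the other members carry out the homeostatic work. Nothing in the labels names astrocytes, which embryonic hippocampal cultures can hold. Of the 6 defining astrocyte markers (Gfap, Aqp4, Aldh1l1, Slc1a3, Aldoc and Sox9), 5 were found by symbol and all 5 had reads in both compartments, while Aldh1l1 was not analysed here. Their summed normalized counts in axons were 1845 and 2301 in the positive-side libraries, against 320.4 and 639 in the negative-side ones. Gfap, Aqp4 and Slc1a3 are members too, so this sum is not separate from the results below. Gfap alone gave 1228 and 1529.9 of it on the positive side, against 158 and 375 on the negative side. The libraries labelled as axons thus held astrocyte transcripts beside neuronal ones, whose 14 measured markers summed to 807 and 918 normalized counts on the positive side, against 544 and 1151 on the negative side. In these bulk samples, fewer cells of a type and less RNA per cell cannot be told apart.

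In axons, 5 of the members were called on the positive side (adjusted p under 0.05). For the 3 of these with a single start in RefSeq (build GRCr8), the 250 bases before the start site are shown, written 5′ to 3′. Capitals mark matches, on either strand, to 6 promoter motifs: the TATA box (TATAAA), the CCAAT box (CCAAT), the GC box (GGGCGG), an AP-1 site (TGANTCA), a STAT site (TTCNNNGAA) and a full palindromic nuclear factor I site.
Vim, chr17:81577011-81577260, plus strand: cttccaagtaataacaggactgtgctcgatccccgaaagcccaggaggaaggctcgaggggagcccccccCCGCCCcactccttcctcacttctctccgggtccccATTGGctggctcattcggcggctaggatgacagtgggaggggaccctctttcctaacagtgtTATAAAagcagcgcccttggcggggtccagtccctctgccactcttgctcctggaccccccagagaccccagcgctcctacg
Gfap, chr10:88361662-88361911, minus strand: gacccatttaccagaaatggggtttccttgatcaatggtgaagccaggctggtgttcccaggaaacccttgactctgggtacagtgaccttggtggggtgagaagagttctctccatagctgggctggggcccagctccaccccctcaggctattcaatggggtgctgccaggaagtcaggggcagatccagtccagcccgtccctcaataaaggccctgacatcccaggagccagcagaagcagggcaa
Gja1, chr20:36302314-36302563, plus strand: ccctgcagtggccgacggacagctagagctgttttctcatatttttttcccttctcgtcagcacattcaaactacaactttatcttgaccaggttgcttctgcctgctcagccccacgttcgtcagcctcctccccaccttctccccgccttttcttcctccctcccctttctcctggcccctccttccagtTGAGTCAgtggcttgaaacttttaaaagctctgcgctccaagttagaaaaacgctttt
The Vim window holds a GC box, a CCAAT box and a TATA box, the Gja1 window an AP-1 match, and the Gfap window none of the 6 spellings. Among 33469 rat promoter windows of this length, 12.9% hold the TATA box, 34% the CCAAT box, 30.5% the GC box, 6.34% the AP-1 match, 7.67% the STAT match and 0.0359% the nuclear factor I match. Over the 15 windows of all 10 members, AP-1 and TATA matches were each found for 1 member (Gja1 and Vim), CCAAT and GC boxes for 4 each, and the STAT and nuclear factor I spellings for 0. No match spelling was shared by the 3 windows printed here.

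The first comparison asks whether the axonal level of these genes differed between the treatments. Of the 10 members, 5 (Vim, Gfap, Glul, Slc1a3 and Gja1) were called on the positive side at the authors' adjusted p under 0.05 (DESeq2), and 0 on the negative side. Only 6 of the 10 have an adjusted p and could be called. Of all 1321 genes with an adjusted p, 23.0% were called, 8.78% on the positive side against 14.2% on the other. The median log2 fold change was 1.46 for the 10 members in the authors' deposited table, against 0.15 for all 8032 genes with a mean of at least 10. For the 2683 genes whose somatic mean reached 100, the axonal log2 fold change had a median of 0.44, and with that median subtracted Vim, Gfap and Glul kept an adjusted p under 0.05 while Slc1a3 (0.0534) and Gja1 (0.133) did not.

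**Figure D1:**
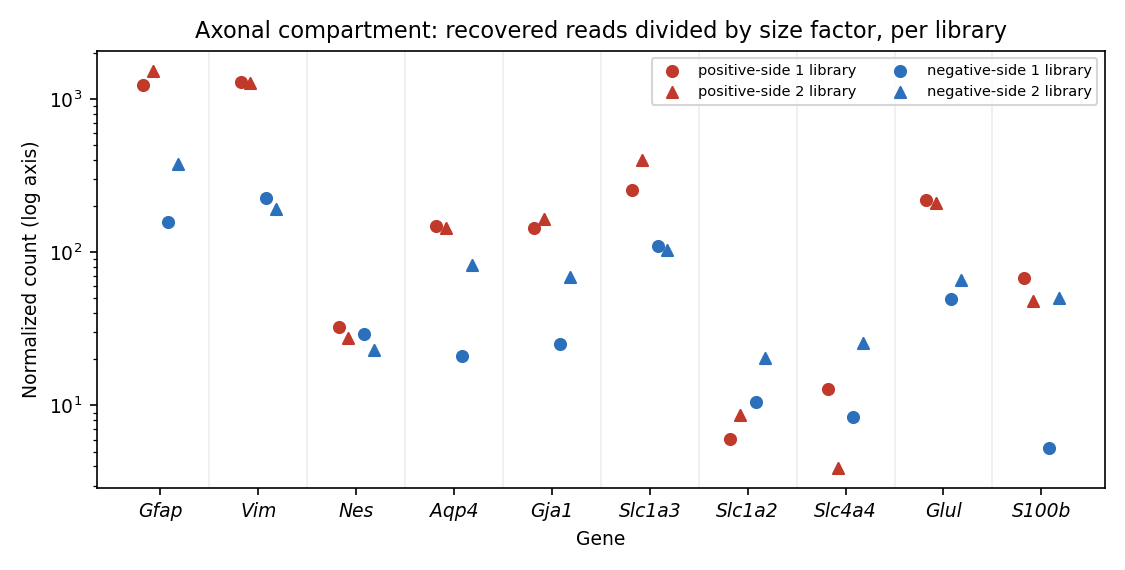
Normalized counts (log axis) of the 10 genes in the 4 axonal libraries; red marks are positive-side and blue marks negative-side libraries, circles library 1 and triangles library 2, with 1 mark per library. The red marks of Gfap, Vim, Aqp4, Gja1, Slc1a3 and Glul lie above both blue marks, those of Slc1a2 lie below, and those of Nes, Slc4a4 and S100b overlap them.

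Among the filament genes, Vim and Gfap were called on the positive side, while Nes was not called and had similar levels on both sides. Vim, which encodes vimentin (ENSRNOG00000018087), had 1286 and 1264 normalized counts in the axonal libraries of the positive side, against 225 and 192 in those of the negative side. Its 2 libraries of a side differed by at most 1.17-fold, while the sides differed 6.12-fold. In the authors' deposited table its log2 fold change was 2.53 (SE 0.37, 95% interval 1.80 to 3.26, adjusted p = 2.81e-09). Gfap, the glial fibrillary acidic protein gene (ENSRNOG00000002919), had 1228 and 1529.9 normalized counts on the positive side, against 158 and 375 on the negative side. Both positive-side libraries lay above both negative-side ones, but those of the negative side differed 2.38-fold from each other. The deposited log2 fold change of Gfap was 2.27 (SE 0.44, 95% interval 1.40 to 3.13, adjusted p = 2.91e-05) in the authors' deposited table. Its log2 ratio from recovered reads was 2.37, with 3.12 when negative-side library 2 was left out and 1.87 when negative-side library 1 was.

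Nes (ENSRNOG00000018681) had 32.5 and 27.4 normalized counts on the positive side, against 29.4 and 23.0 on the negative side, so the sides overlapped. The authors' deposited table gives it a log2 fold change of 0.17 (SE 0.69) and no adjusted p. Its 95% interval, -1.18 to 1.52, ends below the lower bound of Vim's interval. It overlaps that of Gfap, which starts at 1.40, and those of Glul, Slc1a3 and Gja1. Differences between these genes were not tested.

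The channel genes both lay on the positive side, and 1 of the 2 was called. Gja1 (ENSRNOG00000000805) encodes connexin 43, the main gap junction protein of astrocytes. Its positive-side libraries held 144 and 164 normalized counts, against 25.2 and 68.9. In the authors' deposited table its log2 fold change was 1.60 (SE 0.55, adjusted p = 0.0195). That call did not hold with p-values adjusted over genes whose mean reached 10 (adjusted p = 0.10) or over every gene with reads (0.277). Aqp4 (ENSRNOG00000016043), the water channel of astrocyte endfeet, had 147 and 145 normalized counts on the positive side against 21.0 and 82.4. The positive-side libraries were almost equal, and the negative-side ones differed 3.92-fold. Its log2 fold change of 1.39 (SE 0.58) in the authors' deposited table missed the threshold (adjusted p = 0.0687). From recovered reads its log2 ratio of the sides was 1.48, which became 2.74 without negative-side library 2 and 0.82 without negative-side library 1. For Gja1 the same values were 1.69, 2.56 and 1.15.

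The glutamate transporter genes stood on opposite sides. Slc1a3 (GLAST, ENSRNOG00000016163) and Slc1a2 (GLT-1, ENSRNOG00000005479) encode the transporters by which astrocytes clear glutamate, GLT-1 being the later one to appear as astrocytes mature. Slc1a3 had 256 and 397 normalized counts on the positive side, against 110.3 and 103 on the negative side. Every positive-side value was above every negative-side value, and the authors' deposited table puts its log2 fold change at 1.54 (SE 0.44), with an adjusted p of 0.00857. Adjusted over every gene with reads, its adjusted p was 0.130.

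Slc1a2 had 6.05 and 8.61 normalized counts on the positive side, against 10.5 and 20.3 on the negative side, from 8, 11, 10 and 15 reads. Here the negative-side libraries were the higher ones, though the exact Poisson interval of 10 reads, 5.04 to 19.3 normalized counts, spans both positive-side values (95%, counting error only). Its log2 fold change in the authors' deposited table was -0.82 (SE 0.89), with a 95% interval of -2.57 to 0.93 and no adjusted p. That interval overlaps the 0.68 to 2.40 of Slc1a3, and the difference between the 2 genes was not tested.

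Slc4a4 (ENSRNOG00000003134), the sodium bicarbonate cotransporter NBCe1, had 12.8 and 3.91 normalized counts on the positive side, against 8.40 and 25.7 on the negative side, from 5 to 19 reads. The highest and the lowest library stood on different sides, but the other pair was in the opposite order, so the sides overlapped. The authors' deposited table gives -0.77 (SE 0.90) on the log2 scale and no adjusted p.

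Glul (ENSRNOG00000049560), which encodes glutamine synthetase, the enzyme that makes glutamine from glutamate and ammonia, had 220.0 and 209 normalized counts on the positive side, against 49.4 and 66.2 on the negative side. The libraries of a side lay within 1.34-fold of each other and the sides were 3.71-fold apart. In the authors' deposited table its log2 fold change was 1.80 (SE 0.46, adjusted p = 0.00314), and it kept an adjusted p under 0.05 in each of the 3 other adjustments, at 0.0491 over every gene with reads. S100b (ENSRNOG00000001295), a calcium-binding protein of astrocytes, had 68.0 and 47.7 normalized counts on the positive side, against 5.25 and 49.97 on the negative side. Only negative-side library 1, with 5 reads, stood apart from the other 3. The log2 fold change was 0.93 (SE 0.74) in the authors' deposited table, with no adjusted p, and the log2 ratio of the sides from recovered reads was 1.04, or 0.21 without that library and 3.24 without negative-side library 2.

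Read across the members, 6 of 10 had both positive-side libraries above both negative-side ones, where this held for 30.6% of the 7851 recovered genes whose mean reached 10. For 1 member, Slc1a2, the order was the reverse, as in 18.9% of those genes. The negative-side libraries did not vary alike over the members. Library 1 was lower than library 2 for Gfap (2.38-fold), Gja1 (2.73-fold), Aqp4 (3.92-fold), Slc1a2 (1.93-fold), Slc4a4 (3.05-fold) and S100b (9.52-fold), while for Vim, Slc1a3, Nes and Glul they lay within 1.34-fold. The summed normalized counts of all 10 members were 3401 and 3795 in the positive-side libraries, against 642 and 1006 in the negative-side ones.

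The second comparison asks whether these genes differed in the cell body compartment when the axons alone had been treated. No member was called (0 of 10, DESeq2), 0 had an unadjusted p under 0.05, and 0.0% of the 18995 genes tested were called. The deposited log2 fold changes of the members lay between -0.17 (Gja1) and 0.13 (S100b) in the authors' deposited table, each with an adjusted p of 1.00. All 10 members had overlapping sides in soma, where 7.42% of 11051 recovered genes had both positive-side libraries above and 8.26% below the negative-side ones. Each side joins a deep and a shallow library, which differ more than the sides do, so this overlap says little about the treatment. With that depth as a block (limma on log2 normalized counts, chosen after seeing the data), the SEs of the members were 0.11 to 0.23, against 0.33 to 0.61 without the block. Again 0 of the 10 were called, beside 0.00905% of all genes. Unadjusted, 0 of the 10 had a p under 0.05 beside 6.89% of all genes, so the members lay near that share. The lowest was that of Gja1 (log2 ratio -0.35, SE 0.19, unadjusted p = 0.0820 from limma).

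Apart from Glul, the somatic values differed more between the deep and the shallow libraries of a side than between the sides at 1 depth. Vim had 1169.6 and 2559 normalized counts in positive-side libraries 1 and 2 and 1174 and 2302 in negative-side libraries 1 and 2. S100b had 213 and 468 on the positive side, against 196 and 409.8 on the negative side, in the same order. For both genes the shallow libraries were about as high on either side, and both stood above the deep ones.

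Gfap had 2826 and 4061 normalized counts on the positive side, against 2693 and 3859.9 on the negative side. Its log2 ratio of the sides was 0.07 both between the deep and between the shallow libraries. Slc1a2 had 102 and 249 on the positive side, against 121 and 241 on the negative side, in normalized counts. Slc4a4 stood at 115 and 165 against 115 and 203, and Aqp4 at 757 and 1138 against 816 and 1051 normalized counts, also higher in the shallow libraries.

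Gja1 and Slc1a3 went the other way, with lower values in the shallow libraries. Gja1 had 300.1 and 114 normalized counts on the positive side, against 304 and 185 on the negative side. The deep libraries gave a log2 ratio of -0.02 and the shallow ones, with 34 and 59 reads, -0.68. Slc1a3 had 1287 and 788 normalized counts against 1594 and 788, so that its sides stood apart in the deep libraries (log2 ratio -0.31) and held the same rounded value in the shallow ones. Glul, at 591 and 684 against 588 and 626, and Nes, at 85.5 and 74.1 against 87.4 and 78.2 normalized counts, varied little over all 4 libraries (1.16-fold and 1.18-fold from lowest to highest).

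Over the 2567 recovered genes whose somatic mean reached 100, the SD of the log2 ratio of library 2 over library 1 was 0.97 for the positive and 1.06 for the negative side. Between the sides, the SD was 0.25 for the deep and 0.36 for the shallow libraries. No source used here says what else sets the deep libraries apart.

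**Figure D2:**
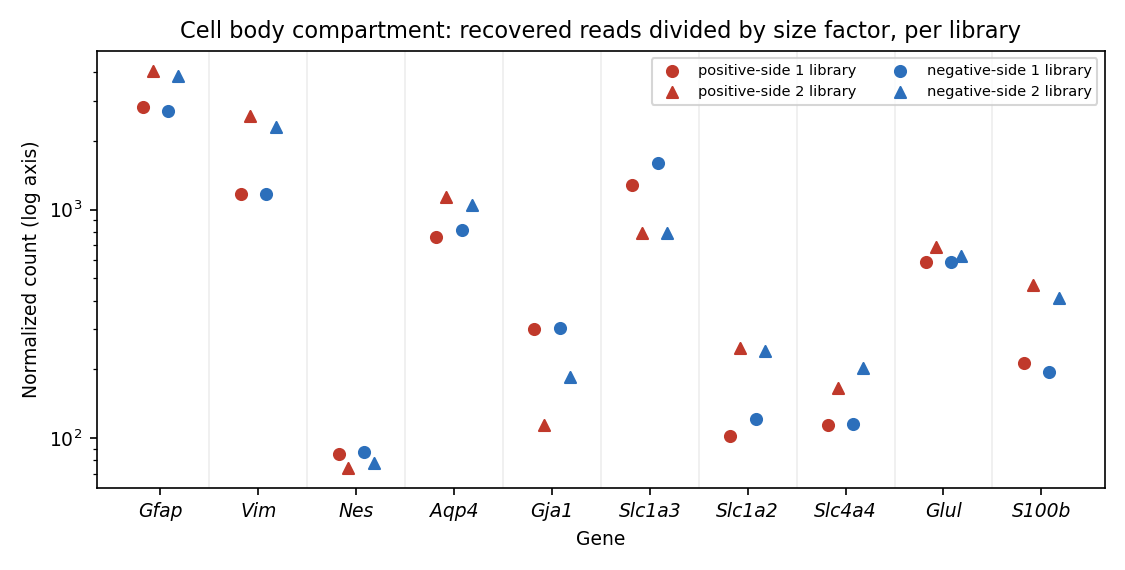
Normalized counts (log axis) of the same genes in the 4 somatic libraries, marked as in the axonal plot. Red and blue circles, the deep libraries, lie close together for most genes, as do the triangles of the shallow libraries except for Gja1, and circles and triangles lie apart for Vim, S100b, Slc1a2, Gja1 and Slc1a3.

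The third comparison asks whether the treatment difference itself differed between axons and cell bodies. For Vim the axonal minus somatic log2 fold change, from the authors' deposited table, was 2.45 (SE 0.62, 95% interval 1.24 to 3.66), and for Gfap it was 2.21 (SE 0.63, 0.97 to 3.44). Neither passed after adjustment over the 18406 genes in both tables (adjusted p = 0.139 and 0.412 from the normal test of the difference, Benjamini-Hochberg), and 0 of the 10 members did, beside 0.0326% of all genes. There were 5 members that had an unadjusted p under 0.05, namely Vim (7.09e-05), Gfap (0.000469), Glul (0.00629), Slc1a3 (0.00899) and Gja1 (0.0178). The SE of the difference takes the axonal and the somatic estimates as independent, which was not tested. The subtraction takes both tables to have the same treatment as numerator, which they do not state. With the somatic sign turned, 4 members had an unadjusted p under 0.05, Gja1 no longer being one (0.0553), and 0 passed after adjustment, Vim having 0.0631. The share of all genes under the unadjusted threshold is not given here, so the counts of 5 and 4 have no background beside them. As subtracted, the differences were 1.74 (SE 0.64) for Glul, 1.70 (SE 0.65) for Slc1a3 and 1.77 (SE 0.75) for Gja1. Over the 2683 genes whose somatic mean reached 100, the median log2 fold change was 0.44 in axons and -0.06 in soma. With these medians subtracted, the normal test of the difference gave an adjusted p of 0.706 for Vim and 0.829 for Gfap. Deposited fold changes were drawn toward 0 by a prior whose SD on the log2 scale was 2.12 in axons and 1.17 in soma, so the 2 tables are not drawn in equally.

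**Figure D3:**
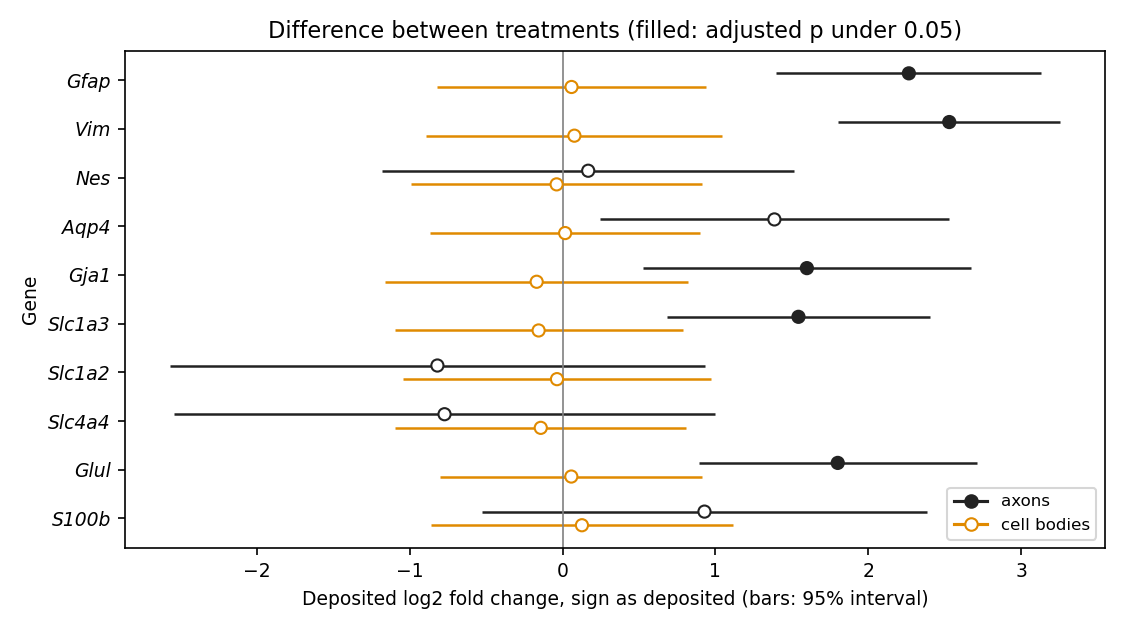
Deposited log2 fold change of each gene with its 95% interval, in axons (black) and cell bodies (orange); filled marks have an adjusted p under 0.05. Filled marks appear for Gfap, Vim, Gja1, Slc1a3 and Glul in axons, and every somatic interval spans 0.

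The members also differed in how much of their RNA was found in axons relative to soma. Each mean was taken as a share of the summed means of its table, and the tables were normalized separately, so this is a description. The log2 of axonal over somatic share was -0.22 for Gja1, -0.33 for Vim, -0.59 for Nes, -1.08 for Gfap, -1.24 for Glul and -1.41 for Slc1a3. It was -1.96 for S100b, -2.30 for Aqp4, -2.61 for Slc4a4 and -3.02 for Slc1a2. The median over 9263 named genes whose somatic mean reached 10 was -0.93, with the middle 50% from -1.51 to -0.31.

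Over both sides, Slc1a2 lay at the 1.10th percentile of these genes, Slc4a4 at the 2.73rd and Aqp4 at the 5.30th, whereas Gja1 lay at the 77.8th and Vim at the 74.3rd. These means pool both sides, and the order differed between them. For the positive-side axonal libraries against the somatic mean, Vim (log2 0.45) and Gja1 (0.40) were the highest and Slc4a4 (-3.21) and Slc1a2 (-3.66) the lowest. For the negative-side libraries Nes (-0.69) and Gja1 (-1.31) were the highest, Vim stood at -2.16, and Gfap (-2.71) and Aqp4 (-3.24) were the lowest, below Slc4a4 (-2.18) and Slc1a2 (-2.59). The 2 glutamate transporter genes were far apart in means pooled over both sides. Their log2 of axonal over somatic share was -1.41 for Slc1a3 and -3.02 for Slc1a2. That gap lay on the positive side (log2 -0.82 for Slc1a3 and -3.66 for Slc1a2). On the negative side the 2 genes stood close together, at -2.44 and -2.59. The SD of single libraries around their compartment's mean, in log2 of the share, was from 0.17 (Nes) to 1.29 (S100b). This SD pools both sides, so a difference between the sides counts as spread in it. Each gap between neighbours in the pooled order was smaller than the larger SD of the pair. For Aqp4, Slc1a2 and Slc4a4 the highest axonal library reached 37.6%, 38.3% and 43.3% of the lowest somatic one. S100b and Glul, at 67.1% and 72.2%, also had every axonal library below every somatic one, and so had Nes and Slc1a3 by less (84.7% and 97.2%). The libraries of Gja1, Vim and Gfap overlapped between the compartments. Expressed as shares of named genes only, Gja1 came to 0.07 and the other 9 lay below 0, and Nes (104%) and Slc1a3 (119%) overlapped too.

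**Figure D4:**
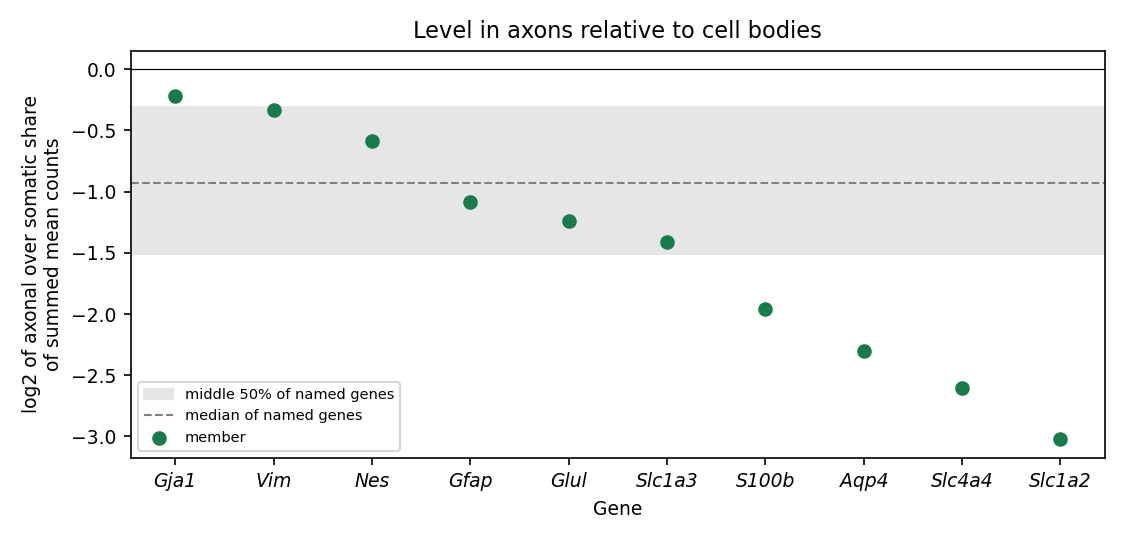
The log2 of each gene's share of summed mean counts in axons over that in cell bodies, ordered from high to low; the grey band is the middle 50% and the dashed line the median of named genes. Gja1 lies above the band, Vim to Slc1a3 within it, and S100b, Aqp4, Slc4a4 and Slc1a2 below it.

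Other genes of the same biology were taken from lists. Of 24 measured other astrocyte genes, 14 have an axonal adjusted p, 6 were called on the positive side and 0 on the negative side, beside 8.78% and 14.2% of all genes. Their median log2 fold change was 0.60 over all 24 in the authors' deposited table. The called genes were Cst3 (a secreted protease inhibitor) at 2.63 (SE 0.42), Aldoc (a glycolytic aldolase) at 1.99 (SE 0.54), and Cd44 (the hyaluronan receptor) at 1.96 (SE 0.55) in the authors' deposited table. Atp1b2, a sodium pump subunit, at 1.75 (SE 0.53), Clu, the chaperone clusterin, at 1.58 (SE 0.51), and Mlc1, a membrane protein of astrocyte endfeet, at 1.49 (SE 0.58) were the others there. Among the most abundant ones not called were Apoe, a lipid carrier, at -0.11 (SE 0.56) and Ttyh1 at 0.68 (SE 0.55) in the authors' deposited table.

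Of 13 other intermediate filament and linker genes, 0 were called in axons (DESeq2) and 0 had an unadjusted p under 0.05. Only Plec, which links filaments to the cell cortex, has an adjusted p, with a log2 fold change of 0.40 (SE 0.46) in the authors' deposited table. The neuronal filament genes Ina and Nefl stood at 0.22 (SE 0.64) and -0.88 (SE 0.69) there. Summed over the list, normalized counts were 304 and 239 on the positive side, against 268 and 266 on the negative side, so that the sides overlapped.

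Of 11 other genes of glutamate and glutamine handling, 0 were called (DESeq2) and 2 had an unadjusted p under 0.05, 1 in each direction. The share of all genes under that unadjusted threshold is not given here. Only 1 of the 11 has an adjusted p, Glud1 (glutamate dehydrogenase), at 1.22 (SE 0.63, with 0.167 as its adjusted p) in the authors' deposited table. Got2, a mitochondrial aminotransferase, stood at 0.63 (SE 0.65) and Slc1a4, a neutral amino acid transporter, at 1.38 (SE 0.70) there. Summed over the 11 genes, both positive-side libraries (260.0 and 311 normalized counts) lay above both negative-side ones (170.2 and 227).

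Of 11 progenitor and radial glia genes, 3 have an adjusted p and 0 were called (DESeq2), beside 23.0% of all genes. The 1 gene with an unadjusted p under 0.05, named for that value, was Sox2, a progenitor transcription factor, at 2.10 (SE 0.79) in the authors' deposited table. For this count too, the share of all genes is not given here. Ptprz1, a receptor phosphatase, stood at 0.33 (SE 0.49), Tnc, a matrix protein, at 0.82 (SE 0.60) and Notch1 at 0.64 (SE 0.56) in the authors' deposited table. Nes belongs to this class of genes by its known role, and its fold change of 0.17 lay near the list's median of 0.13 there. It also lay near the median of 0.15 for all genes with a mean of at least 10, so this is not particular to the class.

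Markers of other cell types were counted in the same way. Of 14 neuronal markers, 7 have an adjusted p and 0 were called (DESeq2), beside 23.0% of all genes, 0 had an unadjusted p under 0.05, and the median log2 fold change was -0.36 in the authors' deposited table. Stmn2, a neuronal microtubule regulator, stood at 0.86 (SE 0.45), Dcx at 0.18 (SE 0.56) and Map2, which binds microtubules in dendrites, at 0.32 (SE 0.54) there. Of 12 microglial markers, 0 have an adjusted p and 2 had an unadjusted p under 0.05 (DESeq2), both on the negative side. They were Csf1r and P2ry12, named for that value, and P2ry12 had an axonal mean of only 5.10. The share of all genes under that unadjusted threshold is not given here, so this count has no background, nor have those of the other lists. Summed over the 12 markers, normalized counts were 90.7 and 36 on the positive side, against 133 and 199 on the negative side. The most abundant were Csf1r, the growth factor receptor of microglia, at -1.83 (SE 0.73), Cx3cr1 at -0.90 (SE 0.73) and Ptprc at -1.27 (SE 0.87) in the authors' deposited table. The 11 oligodendrocyte markers summed to 107 and 94.7 against 113 and 56.7 normalized counts, and the 8 endothelial ones to 59.0 and 20.3 against 117 and 85.1; 0 genes of either list have an adjusted p (DESeq2), and 0 had an unadjusted p under 0.05. The most abundant oligodendrocyte markers included Cnp at 1.18 (SE 0.80) and Pdgfra at -0.15 (SE 0.88), and the endothelial ones were Kdr at -0.22 (SE 0.83), Flt1 at -1.66 (SE 0.91) and Tek at -1.44 (SE 0.95) in the authors' deposited table. Every marker found for these lists had axonal reads.

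Some fibroblast and meningeal markers were called on the same side as the astrocyte genes. Of 9 measured, 4 have an adjusted p and 3 of these were called on the positive side, beside 8.78% of all genes. They were Fbln1 (a matrix protein) at 2.59 (SE 0.47) and the collagen genes Col1a1 at 2.28 (SE 0.50) and Col1a2 at 2.65 (SE 0.63) in the authors' deposited table. The other 6, among them Fbn1 at -0.38 (SE 0.57), Pdgfrb at -0.73 (SE 0.77) and Col3a1 at -0.05 (SE 0.86), had fold changes below 0, and the list's median was -0.38 there. Summed normalized counts were 667 and 1025 on the positive side, against 230.0 and 247 on the negative side. Since fibroblasts also express Vim, this list stands beside the result for Vim, and its part in that result was not tested.

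**Figure D5:**
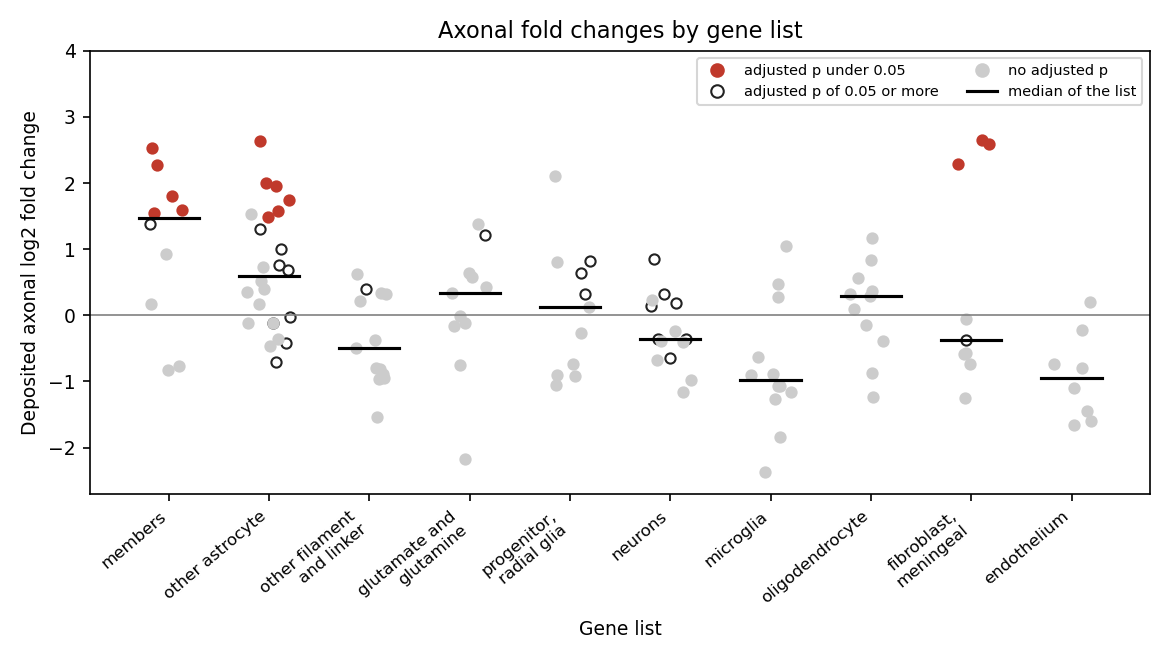
Deposited axonal log2 fold change of each gene by list, with the list's median as a black bar; red marks have an adjusted p under 0.05, open marks one of 0.05 or more, and grey marks none. Red marks appear among the members, the other astrocyte genes and the fibroblast and meningeal genes.

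The genes whose axonal profile lay nearest to Gfap and to Vim were sought among 176 named genes with a mean of at least 100, by Euclidean distance between log2 normalized counts in the 4 axonal libraries after centring each gene. For Gfap they were Lamp1 (distance 0.242), Aldoc (0.344), Prnp (0.557), Cd81 (0.615) and Scd1 (0.616). For Vim they were Fbln1 (0.258), C3 (0.458), Scd1 (0.490), Fads1 (0.564) and Serpine2 (0.566). Among the members, Gja1 was the 6th nearest to Gfap (0.654) and Glul the 10th (0.885), while Vim was the 20th (1.08). Glul was the nearest member to Vim (0.856, 15th). With 4 libraries, these distances describe the libraries and carry no test.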

How the data were processed

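RNA of 8 samples in 4 groups was sequenced. The submitters' processing notes name DESeq2, SAMtools, TopHat2 and Trim Galore, without versions. No source used here gives the genome build, the annotation or the counting program. The authors deposited 2 tables, 1 per compartment. Per the file headers, these hold a mean normalized count (a signal the authors made by dividing counts by size factors), the fold change and its SE on the log2 scale, a Wald score, and a p-value before and after Benjamini-Hochberg adjustment, all deposited by the authors.

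Each deposited mean, written to 15 digits, adds up 4 whole read counts, each times a unit fixed for its library. Units came from genes with 1 read, and sides from the sign of their fold change. Up to a mean of 1000, 100% of axonal and all but 1 of 18877 somatic values had exactly 1 solution. Refitting the authors' model to the recovered reads gave back the deposited fold change of each member within 0.001 (log2), and picked the single solution that did so for somatic Vim (of 5) and Gfap (of 22). Of 300 other genes per table, 300 axonal and 290 somatic ones were given back. Libraries cannot be matched to sample titles and enter no test but a somatic one of the sides with library depth as a block (limma 3.58.1, log2 of normalized count plus 1, genes with a mean of at least 10), added after seeing the data. Ratios of sides used a pseudocount of 1. Python 3.11.15, numpy 2.4.6, scipy 1.17.1 and numba 0.67.0 were used, and the recovery and the test of the difference were tested on simulated data.

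The members and gene lists were chosen with earlier results of these data known. All 10 members are named. From each other list, called genes (at most 6, by p) and the 3 most abundant genes not called are named, except for items not reported here. Of the listed genes, Aldh1l1, Nefm, Blbp and Fn1 were not found by symbol and are not analysed here. Alternatives changed the genes over which p was adjusted, the threshold, the centring, the scaling, the pseudocount and the libraries.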

Additional observations from a re-analysis of the deposited data

How the results depend on the processing

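The axonal comparison called 5 of the 10 members, and 3 when p-values were adjusted over every gene with reads, 4 over genes with a mean of at least 10, 3 with fold changes centred on the median of the genes whose somatic mean reached 100, and 6 at a threshold of 0.1. Vim, Gfap and Glul were called in each of these settings. Both the somatic comparison and the difference between compartments had 0 called members in each setting run. In axons, 8 of 10 ratios of the sides lay above 0 under each scaling, pseudocount and left-out library. Leaving out negative-side library 2 moved 6 of 10 axonal ratios by more than the spread within sides. In soma, 5 of 10 ratios lay above 0, and 3 to 7 with 1 library left out; 8 of the 10 changed sign without positive-side library 2, since that leaves a deep library against a deep and a shallow one. The level of axons against soma was below 0 (log2) for 10 members, and for 9 as shares of named genes. No paired analysis was possible because the recovered libraries carry no replicate number. Chosen after seeing the data, limma on recovered somatic reads called 0 members both with and without library depth as a block, and turning the somatic sign left 0 called in the difference. Depth limits Slc1a2, Slc4a4 and S100b most, with 5 reads in the lowest axonal library of the last 2.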
